A study of Homo sapiens with 6 samples.

Results

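The genes described here are 9 genes of acid-base transport in T47D, an established line of human breast cancer cells of luminal type. They are the carbonic anhydrases CA2, CA9 and CA12, the monocarboxylate transporters SLC16A1 and SLC16A3 with their chaperone BSG, and the bicarbonate transporters SLC4A2, SLC4A4 and SLC4A7. The 9 were taken by gene symbol from the 27754 genes in the deposited count files, and each symbol was found once. Adherent cells in RPMI medium with fetal bovine serum were compared between normoxia (20% O2) and a hypoxia chamber, with 3 RNA sequencing libraries in each condition and no treatment or genetic change besides oxygen. The labels give 0.5% O2 and 48 h for hypoxia, whereas the study's text gives 1% O2 and the same time for both conditions. The comparison asks how the mRNA of these genes differed after culture in low oxygen. The study's text describes its data as coming from independent experiments, while the labels only number the replicates.

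Cells that depend on glycolysis release lactate and protons, and respiring cells release CO2. Carbonic anhydrases interconvert CO2 and bicarbonate, monocarboxylate transporters carry lactate together with a proton across the plasma membrane, and the SLC4 family moves bicarbonate. Under low oxygen the transcription factor HIF-1 is known to bind the DNA cores ACGTG and GCGTG, and CA9 is a classical target and a widely used marker of hypoxic tumor cells.

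The bases before the start sites of these genes were searched for both motifs on both strands. RefSeq promoter windows (GRCh38.p14) of 300 bases, from 250 before to 50 after a start, were searched for 7 of the 9 genes, in 20 windows, and each matched GRCh37, the build of the count files, at 1 place. CA2 was left out of the search and SLC16A1 had no window, so both are named only. ACGTG stood in 5 of these 20 windows, which belonged to CA9, SLC16A3, BSG and SLC4A2, against 21.4% of all 35116 windows. The SLC4A2 windows among them (starts at 150759634 and 150759729) overlap and hold the same sites, which are thus counted in each. GCGTG stood in 11 of the 20, against 36.5% of all windows. To show where the motif stood, the stretches before the start that hold ACGTG are given for these 4 genes, up to the first base counted as exon, with GRCh37 coordinates and with the motif in capitals. CACGTG is a palindrome that reads ACGTG on each strand and counts as a match on both.
CA9, chr9:35673675-35673914, forward strand: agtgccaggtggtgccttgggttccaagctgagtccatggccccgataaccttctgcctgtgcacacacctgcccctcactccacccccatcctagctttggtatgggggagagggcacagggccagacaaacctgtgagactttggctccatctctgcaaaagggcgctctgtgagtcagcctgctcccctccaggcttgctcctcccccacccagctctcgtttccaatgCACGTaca
SLC16A3, chr17:80186668-80186886, forward strand: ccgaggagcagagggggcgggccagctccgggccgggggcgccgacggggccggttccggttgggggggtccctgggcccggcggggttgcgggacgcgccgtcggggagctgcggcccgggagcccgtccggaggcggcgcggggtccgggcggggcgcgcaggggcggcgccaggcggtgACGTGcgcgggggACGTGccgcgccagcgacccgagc
BSG, chr19:572346-572453, forward strand: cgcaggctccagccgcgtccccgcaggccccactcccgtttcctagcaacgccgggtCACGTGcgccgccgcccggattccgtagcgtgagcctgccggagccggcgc
SLC4A2, chr7:150759384-150759633, forward strand: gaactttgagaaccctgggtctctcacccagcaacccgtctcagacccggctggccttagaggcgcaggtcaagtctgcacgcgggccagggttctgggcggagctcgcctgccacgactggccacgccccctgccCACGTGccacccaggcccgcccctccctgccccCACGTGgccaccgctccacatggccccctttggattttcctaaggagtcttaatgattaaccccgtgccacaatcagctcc
The motif of CA9 began 18 bases before the RefSeq start and lay on the reverse strand. A window of SLC16A3 held ACGTG 68 and 55 bases before a start, but its other 4 windows held no ACGTG. BSG had a palindrome from 193 bases before an internal start. SLC4A2 had palindromes from 114 and 81 bases before a start. CA12, SLC4A4 and SLC4A7 had no ACGTG in their windows. A match describes letters only and does not show that a factor binds there.

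The libraries held between 32989104 and 89883409 counts, with hypoxia replicate 3 the deepest. Levels are given as CPM, the TMM-normalized share of a library's counts. At this depth 3 counts, taken as the detection floor, corresponded to between 0.0328 and 0.0969 CPM in a single library, a limit of counting error only. VEGFA, a hypoxia-induced growth factor used to check the labels, rose from 39.2 ± 6.51 to 804 ± 35.8 CPM (SD, n = 3 each, log2-fold change 4.36, adjusted p = 5.16e-06). All 9 luminal epithelial markers examined had counts, with summed levels of 13959 to 18121 CPM in normoxia and 10193 to 13471 CPM in hypoxia, and ESR1, PGR, GATA3 and FOXA1 were lower in hypoxia. The other 5 were not called, with log2-fold changes of -0.51 for KRT8, -0.36 for KRT18, -0.04 for KRT19, 0.03 for EPCAM and 0.19 for CDH1. With the replicate number as a term, KRT8 and KRT18 were called lower and CDH1 higher (adjusted p = 7.55e-05, 0.00107 and 0.00965). Summed markers of basal epithelial, immune and endothelial cells did not exceed 8.04 CPM in any library, although immune markers were higher in hypoxia (6.27 to 8.04 CPM against 1.00 to 1.67 CPM), almost wholly through CD68, while PTPRC stayed at or below 0.0988 CPM. Basal markers were higher in hypoxia too (2.72 to 3.03 CPM against 1.07 to 2.04 CPM). Of these, KRT17 was called higher (log2-fold change 4.12, adjusted p = 4.48e-04) but stayed at or below 1.19 CPM. TP63 was not called (log2-fold change 0.16, adjusted p = 0.620). The 4 fibroblast markers summed to 77.3 to 99.5 CPM in all libraries, almost wholly COL1A1, which was not called (log2-fold change -0.07, adjusted p = 0.616). PDGFRB was called higher (log2-fold change 3.60, adjusted p = 0.00624) but stayed at or below 0.492 CPM, and DCN was at or below 0.0269 CPM. Replicate 3 stood apart in both conditions. VIM, a mesenchymal filament gene, was at 0.177 and 0.322 CPM in normoxia replicates 1 and 2 but 12.8 CPM in replicate 3. Hypoxia gave 0.865, 0.957 and 10.95 CPM. CAV1, MSN and SPARC were also highest in replicate 3 of each condition. The summed list of 6 mesenchymal or basal-like markers was at 63.1 to 82.9 CPM in normoxia and 92.3 to 124 CPM in hypoxia. Most of that sum was CD44, which was lowest in replicate 3 of each condition (42.0 CPM in normoxia and 63.2 in hypoxia). CD44 was called higher with the replicate number as a term (adjusted p = 1.10e-04), but not with condition alone (adjusted p = 0.124). AXL, the only gene of the list called with condition alone, rose (log2-fold change 1.97, adjusted p = 2.33e-04) and did not stand apart in replicate 3. The part of the replicate 3 differences in the results was not tested. The change of each tested member and the counts of each list are also given without replicate 3. In bulk RNA, fewer cells of a type and less RNA per cell cannot be told apart.

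Of the 9 genes, 7 passed the filter on low counts and were tested. CA9, SLC16A3 and BSG rose in hypoxia, CA12 and SLC4A7 fell, and SLC4A2 and SLC16A1 did not pass the test. CA2 and SLC4A4 were too low to be tested. Called genes were thus 5 of 7, in a comparison in which 59.5% of the 15657 tested genes were called (30.4% higher and 29.1% lower), so the count by itself does not set these genes apart. Of all called genes 51.1% were higher, or 64.5% with upper-quartile scaling. With the replicate number entered as a block, SLC4A2 was called too, giving 3 higher and 3 lower of 7, where 71.8% of all genes were called (36.6% higher and 35.2% lower). CPM did not overlap between the conditions for 5 of the 7 tested members, the called ones, against 67.3% of all tested genes (34.9% higher and 32.4% lower). This count does not set the members apart either. What differed among the members was direction and size. The log2-fold change of CA9 exceeded that of 99.6% of tested genes, and 1.48% of tested genes had a lower value than CA12. The median of the 7 was -0.14, beside 0.03 for all tested genes.

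**Figure D1:**
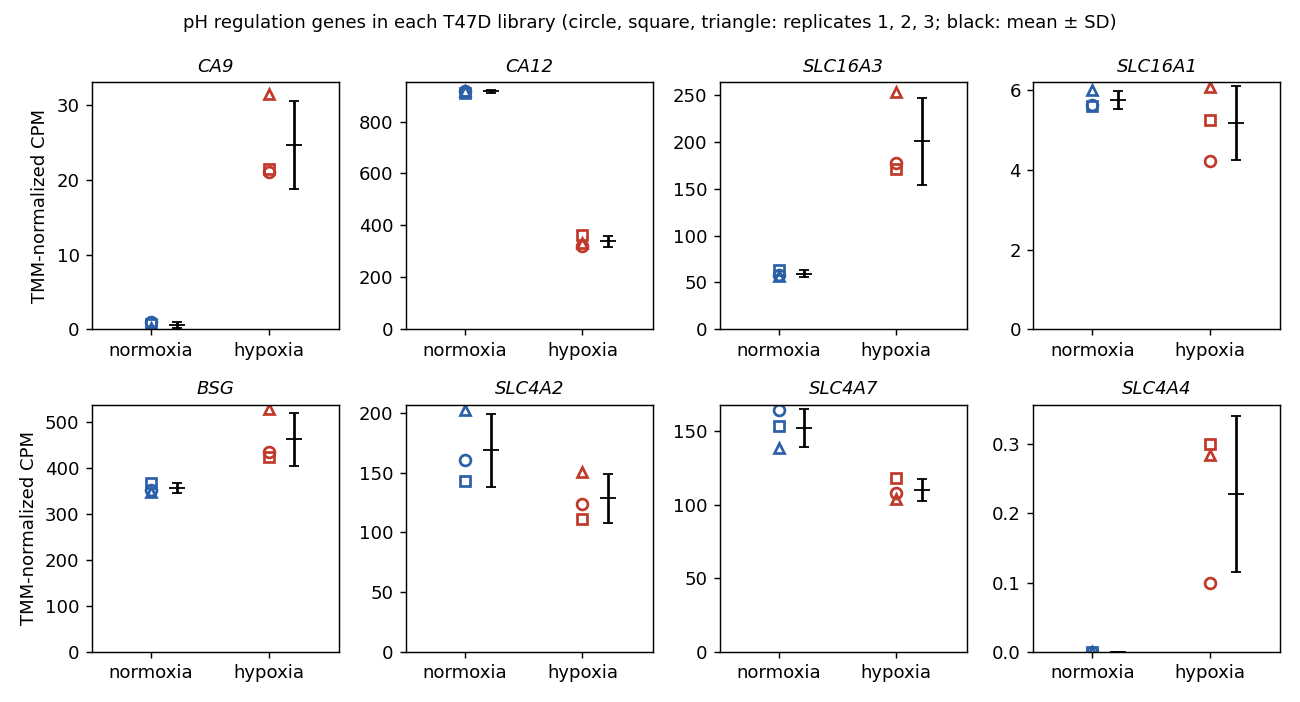
TMM-normalized CPM (linear axis from 0) of 8 pH regulation genes in each T47D library, with normoxia in blue, hypoxia in red, replicate numbers as symbols, and the mean ± SD of 3 libraries in black. CA9 and SLC16A3 in hypoxia lay above every normoxia library, CA12 lay below, and SLC4A4 had counts in hypoxia only.

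The carbonic anhydrases at the cell surface changed in opposite directions. CA9 (chr9:35673915-35681154, forward strand, 11 exon blocks) encodes a transmembrane enzyme with its active site outside the cell. In replicates 1, 2 and 3, its counts were 37, 26 and 6 under normoxia against 854, 783 and 2880 under hypoxia. These corresponded to 0.937, 0.699 and 0.194 CPM in normoxia and 21.1, 21.4 and 31.5 CPM in hypoxia. Normoxia replicate 3 was the lowest library and hypoxia replicate 3 the highest, and the groups were far from overlapping. The mean rose from 0.610 ± 0.380 to 24.7 ± 5.92 CPM (SD, n = 3 each), a fitted 39.0-fold increase (log2-fold change 5.29, SE 0.38, 95% interval 4.40 to 6.17, adjusted p = 6.16e-05). Without replicate 3 of both conditions, the log2-fold change was 4.69 (adjusted p = 1.76e-11).

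CA12 (chr15:63613577-63674365, reverse strand), a related membrane-bound enzyme with an extracellular active site that is known to be expressed with estrogen receptor in breast cancer, was the most abundant carbonic anhydrase mRNA in these cells. In replicates 1, 2 and 3, normoxia gave 919, 910 and 918 CPM and hypoxia 321, 361 and 332 CPM. The normoxia libraries were nearly identical, and every hypoxia library lay far below them. The mean fell from 916 ± 5.11 to 338 ± 20.7 CPM, a 2.71-fold decrease (log2-fold change -1.44, SE 0.08, 95% interval -1.61 to -1.26, adjusted p = 3.35e-05), with -1.42 without replicate 3 of both conditions (adjusted p = 4.12e-10). ESR1, the gene of estrogen receptor alpha, fell as well, from between 256 and 302 CPM in normoxia to between 74.2 and 75.3 CPM in hypoxia (log2-fold change -1.86, adjusted p = 2.06e-05). A link between the changes of CA12 and ESR1 was not tested, and 29.1% of all tested genes were called lower.

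CA2 (chromosome 8, positions 86376131 to 86393721), a fast cytosolic enzyme, had 0 counts in all normoxia libraries, while hypoxia replicates 1, 2 and 3 held 0, 1 and 3. Both conditions were at or under the floor, so no fold is given and a difference was not detectable at this depth.

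Adding all 15 carbonic anhydrase genes per length showed how the make-up of the family differed. Per-length levels are CPM per kilobase (kb) of the exon length in the files and compare genes within a library. The summed level was 159 ± 1.08 CPM per kb in normoxia and 101 ± 5.50 in hypoxia, a ratio of 0.636, with no overlap between libraries (exact permutation p = 0.10, two-sided, the smallest that 3 against 3 allows). CA12 supplied 89.2% ± 1.05 of the sum in normoxia and 51.8% ± 2.87 in hypoxia. CA9 per length went from 0.393 ± 0.244 to 15.9 ± 3.81 CPM per kb, and its share of CA9 and CA12 together went from 0.276% ± 0.171 to 23.2% ± 4.51. In the separate libraries this share was 0.422%, 0.318% and 0.0878% in normoxia and 21.5%, 19.8% and 28.3% in hypoxia. The rise of CA9 was smaller than the fall of CA12 on this scale, and both genes summed to 142 ± 0.804 CPM per kb in normoxia and 68.2 ± 4.40 in hypoxia.

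**Figure D2:**
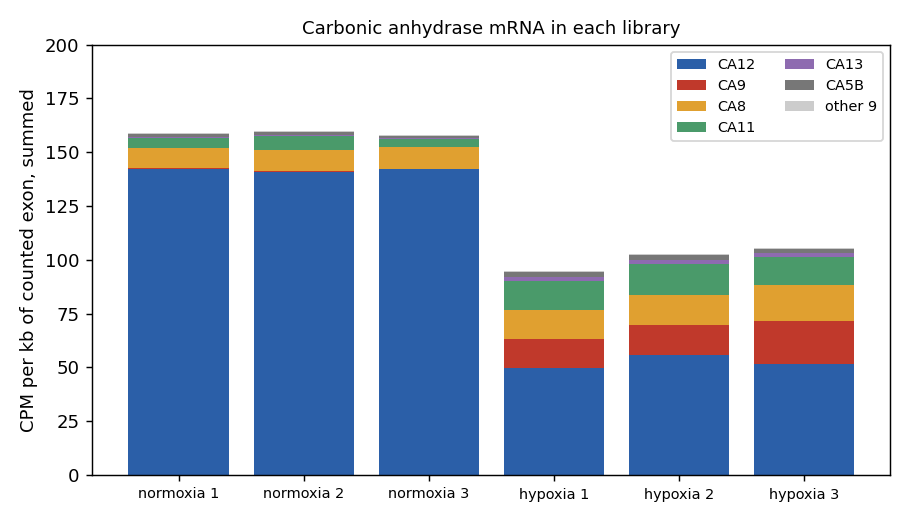
Stacked bars of carbonic anhydrase mRNA in each library, in CPM per kb of counted exon summed over 15 genes, with 6 genes coloured and the other 9 in light grey. CA12 fills most of each normoxia bar (sums of 158 to 160) and a smaller part of each hypoxia bar (sums of 94.9 to 105), where CA9, CA8 and CA11 take larger shares.

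Of the other 12 carbonic anhydrase genes, 5 were tested, of which 4 rose and 0 fell, where 30.4% of all tested genes rose and 29.1% fell (median log2-fold change 0.89, beside 0.03 for all). CA13, a cytosolic isoform, rose 3.05-fold from 2.13 ± 0.645 to 6.53 ± 0.515 CPM (adjusted p = 7.04e-04). CA11 rose 2.79-fold from 12.3 ± 3.42 to 34.3 ± 2.18 CPM (adjusted p = 4.31e-04). The other risers were CA8, from 84.1 ± 5.27 to 123.9 ± 16.0 CPM (log2-fold change 0.56, adjusted p = 0.00277), and the mitochondrial isoform CA5B (log2-fold change 0.89, adjusted p = 0.0057), which were named after their values were seen because the count was small. CA8 and CA11 are carbonic anhydrase-related proteins that are known to lack the enzyme's activity, so the risers are not all enzymes. CA14 did not pass (log2-fold change 0.72, adjusted p = 0.188), and the 7 untested genes had at most 15 counts in any library.

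The lactate carriers also differed from each other. SLC16A3 (chr17:80186282-80197375, forward strand) encodes MCT4, the transporter associated with lactate export from glycolytic cells. In replicates 1, 2 and 3, normoxia gave 57.7, 63.4 and 57.3 CPM and hypoxia 177, 171 and 254 CPM. Each hypoxia library exceeded each normoxia library, and hypoxia replicate 3 was the highest. The mean rose 3.38-fold, from 59.5 ± 3.46 to 201 ± 46.3 CPM (log2-fold change 1.75, SE 0.16, 95% interval 1.395 to 2.11, adjusted p = 1.22e-04), and the log2-fold change was 1.53 without replicate 3 of both conditions (adjusted p = 1.61e-10).

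SLC16A1 (chr1:113454470-113498975, reverse strand) encodes MCT1, which carries lactate in either direction and is commonly linked with uptake. Its levels were low and overlapped between conditions, at 5.62, 5.62 and 6.01 CPM in normoxia and 4.22, 5.25 and 6.07 CPM in hypoxia. No difference passed the test (log2-fold change -0.14, SE 0.17, 95% interval -0.53 to 0.24, adjusted p = 0.482), and the interval includes both a fall and a rise. With upper-quartile scaling, which moved the median of all tested genes from 0.03 to 0.19, the sign turned (log2-fold change 0.011, adjusted p = 0.958). Without replicate 3 of both conditions the value was -0.24 (adjusted p = 0.174).

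BSG (chr19:571277-583493, forward strand) encodes basigin (CD147), the chaperone that brings both transporters to the plasma membrane. It was the most abundant member per length in both conditions. Its levels were 352, 368 and 347 CPM in normoxia and 436, 424 and 529 CPM in hypoxia. Every hypoxia library was above every normoxia library, with hypoxia replicate 3 highest. The mean rose 1.30-fold, from 356 ± 10.9 to 463 ± 57.6 CPM (log2-fold change 0.38, SE 0.10, 95% interval 0.15 to 0.61, adjusted p = 0.0114). Without replicate 3 of both conditions it was 0.26 (adjusted p = 8.51e-04). The call was lost without replicate 1 of both conditions (0.41, adjusted p = 0.0896).

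Ratios within a library do not depend on scaling between libraries. Per length, with a pseudocount of 0.5 added to each count, SLC16A3 exceeded SLC16A1 by 19.2, 21.2 and 17.9 times in normoxia. The ratio was 78.6, 61.0 and 78.6 in hypoxia, a difference of 1.90 on the log2 scale. The other ratios are per length too. SLC16A3 relative to its chaperone BSG went from 0.158, 0.166 and 0.159 to 0.392, 0.388 and 0.463 (log2 difference 1.36), and every hypoxia library had a higher ratio than every normoxia library. CA12 relative to CA9 went from 233, 307 and 1051 to 3.66, 4.06 and 2.53 (log2 difference -6.98). The ratio of SLC4A7 to SLC4A4, also computed, is not given, because SLC4A4 had 0 counts in normoxia and the pseudocount would set its value. None of these 3 ratios overlapped between conditions, and each gave an exact permutation p of 0.10 (two-sided, adjusted over 4 ratios 0.10), the smallest this design allows.

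**Figure D3:**
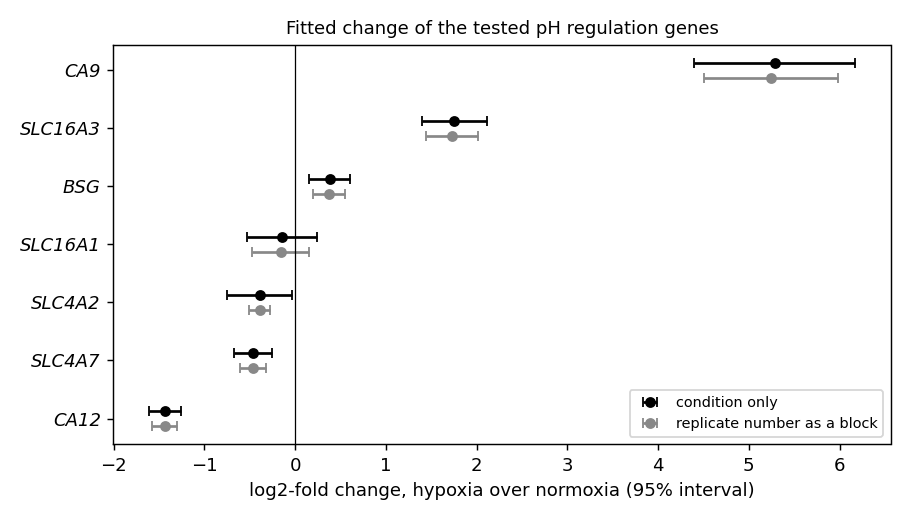
Fitted log2-fold change of the 7 tested genes (hypoxia over normoxia, points) with 95% intervals (bars), from edgeR's quasi-likelihood fit for condition only in black and with the replicate block in grey. Intervals of CA9, SLC16A3 and BSG lie above 0, those of CA12 and SLC4A7 below, and that of SLC4A2 is much shorter with the block (-0.51 to -0.27) than without it (-0.75 to -0.04).

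Of the bicarbonate transporters expressed in normoxia, SLC4A7 fell in hypoxia, and the call for SLC4A2 depended on the test and the libraries used. SLC4A7 (chr3:27414212-27525911, reverse strand) encodes NBCn1, which brings sodium and bicarbonate into the cell. Normoxia replicates gave 164, 153 and 138 CPM, and hypoxia replicates 108, 118 and 104 CPM. The groups did not overlap. The mean fell 1.38-fold, from 152.0 ± 12.9 to 110.1 ± 7.43 CPM (log2-fold change -0.47, SE 0.09, 95% interval -0.67 to -0.26, adjusted p = 0.00311), and was -0.48 without replicate 3 of both conditions (adjusted p = 1.63e-05). Without replicate 1 of both conditions it was -0.39 and was no longer called (adjusted p = 0.0808).

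SLC4A2 (chr7:150755287-150773614, forward strand) encodes AE2, an anion exchanger that removes bicarbonate in exchange for chloride. Normoxia replicates gave 161, 143 and 202 CPM, and hypoxia replicates 123.3, 111 and 150.5 CPM. The groups overlapped, because hypoxia replicate 3 lay above normoxia replicate 2. Replicate 3 was the highest in both conditions, by 0.42 and 0.36 on the log2 scale over the mean of the other replicates. The log2-fold change was -0.39 (SE 0.15, 95% interval -0.75 to -0.04) and did not pass the test (adjusted p = 0.0566). Once replicate number entered as a block, the value was the same and the difference passed (SE 0.05, adjusted p = 2.22e-04). Within the same-numbered libraries the log2 difference was -0.38, -0.36 and -0.43. Without replicate 3 of both conditions it was -0.37 and passed (adjusted p = 3.78e-04). It also passed in fits that did not pair the libraries, with edgeR's exact test (adjusted p = 0.0318), with DESeq2 (adjusted p = 0.0312), with a filter of at least 1 count (adjusted p = 0.0423), and without normoxia replicate 2 (-0.52, adjusted p = 0.0252) or hypoxia replicate 3 (-0.53, adjusted p = 0.0166). In all, SLC4A2 passed in 7 of 15 alternatives. It did not pass with RLE scaling (adjusted p = 0.0515) or upper-quartile scaling (-0.23, adjusted p = 0.166). Nor did it pass without replicate 1 (adjusted p = 0.203) or replicate 2 (adjusted p = 0.0811) of both conditions.

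SLC4A4 (chr4:72053003-72437804, forward strand) encodes NBCe1, an electrogenic sodium bicarbonate cotransporter. It had 0 counts in all normoxia libraries and 4, 11 and 26 in hypoxia, or 0.0988, 0.301 and 0.284 CPM. All hypoxia libraries were above the floor of 3 counts. Summed over libraries, 41 counts in hypoxia against 0 in normoxia gave a level at least 8.73-fold higher (0.243 CPM against a floor of 3 counts over the group, 0.0279 CPM). The gene failed the filter on low counts, and in a fit of every gene with at least 1 count it was called (adjusted p = 0.0031). That fit called 5297 of 22214 genes higher, and its median log2-fold change was 0.18. Even in hypoxia SLC4A4 remained far below the other SLC4 members.

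Per length, BSG (149 ± 4.55 CPM per kb) and CA12 (142 ± 0.791) led in normoxia without overlapping. They were followed by SLC4A2 (29.2 ± 5.28) and SLC16A3 (24.0 ± 1.39), which overlapped, then SLC4A7 (18.5 ± 1.57), SLC16A1 (1.23 ± 0.048) and CA9. In hypoxia BSG (194 ± 24.1) remained highest, SLC16A3 (80.8 ± 18.6) came next and CA12 (52.3 ± 3.21) after it, with no overlap among them. SLC4A2 (22.2 ± 3.49), CA9 (15.9 ± 3.81) and SLC4A7 (13.4 ± 0.903) formed the following group, in which CA9 overlapped with each of the others. SLC16A1 was at 1.11 ± 0.198 CPM per kb, and SLC4A4 and CA2, whose values overlapped, were the lowest. CA9 moved from the lowest tested gene to the middle of the order. SLC16A1 and SLC16A3 together went from 25.2 ± 1.37 to 81.9 ± 18.8 CPM per kb (ratio 3.25), with SLC16A3 supplying 95.1% ± 0.395 in normoxia and 98.6% ± 0.205 in hypoxia. SLC4A2, SLC4A4 and SLC4A7 together went from 47.7 ± 4.24 to 35.6 ± 2.70 CPM per kb (ratio 0.748). Each of these sums gave an exact permutation p of 0.10.

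**Figure D4:**
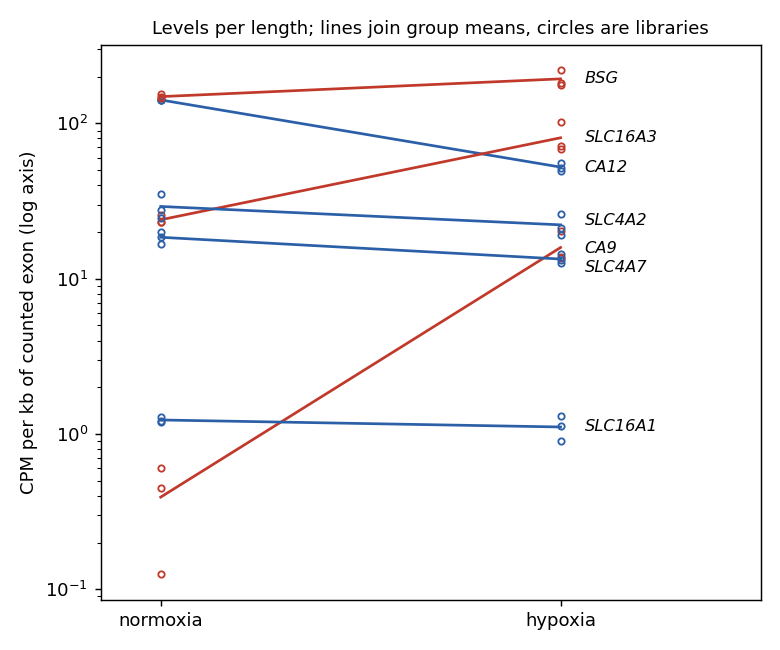
Levels of the 7 tested genes in CPM per kb of counted exon (log axis) in normoxia and hypoxia, with a line joining the group means and a circle for each library, red where the mean was higher in hypoxia and blue where it was lower. CA9 goes from 0.393 to 15.9 and joins SLC4A2 and SLC4A7, while SLC16A3 passes CA12.

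Other genes that handle acid and base were grouped into lists by function, and their counts of calls are to be read beside 30.4% higher and 29.1% lower over all tested genes, whose median log2-fold change was 0.03. Without replicate 3 of both conditions, more genes were called over all, 5751 higher and 5506 lower of 15803 tested. The main fit gave 4765 and 4551 of 15657. In the fit without replicate 3, 4 of the other carbonic anhydrases were called higher and 0 lower. The counts were 6 and 1 of the monocarboxylate list, 4 and 4 of the anion transporters, and 6 and 5 of the sodium-proton list. They were 3 and 14 of the vacuolar pump, 2 and 1 of the sensors, and 3 and 2 of the regulators. Of 15 further monocarboxylate transporters and relatives, with the second chaperone EMB, 11 were tested, of which 5 rose and 1 fell (median log2-fold change 0.51). SLC16A9 rose from 9.17 ± 1.63 to 17.8 ± 3.13 CPM (log2-fold change 0.95, adjusted p = 0.00262). SLC16A14 fell (log2-fold change -0.38, adjusted p = 0.0363), but lost the call with upper-quartile scaling (-0.22, adjusted p = 0.222) and without normoxia replicate 1 or 2 or hypoxia replicate 1 or 3. SLC16A7, which encodes MCT2, had at most 29 counts and was not tested. EMB was not called (log2-fold change -0.22, adjusted p = 0.649).

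Of 17 other SLC4 and SLC26 anion transporters, 11 were tested, of which 5 rose and 3 fell (median log2-fold change 0.09, or -0.12 without replicate 3 of both conditions). The strongest risers were low in normoxia. SLC4A9 rose 8.86-fold from 0.576 ± 0.255 to 5.19 ± 1.33 CPM (adjusted p = 2.66e-04), and SLC4A3, the anion exchanger AE3, rose 3.97-fold from 1.33 ± 0.596 to 5.37 ± 0.980 CPM (adjusted p = 0.00134). SLC26A1, a sulfate transporter, fell 2.88-fold from 11.3 ± 3.07 to 3.88 ± 0.566 CPM (adjusted p = 7.32e-04). SLC26A6, which exchanges chloride for bicarbonate and oxalate, fell 1.66-fold from 42.3 ± 1.29 to 25.4 ± 1.038 CPM (adjusted p = 2.29e-04). The list had 8 called genes, but 5 without replicate 1 of both conditions and 5 without replicate 2.

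Sodium-proton exchangers and their cofactors were called in both directions, with 6 higher and 5 lower among 14 tested of 16 (median log2-fold change 0.21). SLC9A7, an exchanger of the Golgi, rose 2.81-fold from 44.6 ± 9.69 to 125.6 ± 5.46 CPM (adjusted p = 2.11e-04). SLC9A2 fell 2.41-fold from 71.5 ± 1.49 to 29.8 ± 3.48 CPM (adjusted p = 8.32e-05). SLC9A3R1, a scaffold protein also called NHERF1 and known as an estrogen-induced gene, fell 3.26-fold from 1365 ± 186 to 418 ± 24.7 CPM (adjusted p = 4.76e-05). Without replicate 1 of both conditions, 7 of the list were called.

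Subunits of the vacuolar proton pump, which acidifies lysosomes and other compartments, were mostly lower. Of 25 genes 23 were tested, of which 14 fell and 3 rose, where 29.1% of all tested genes fell and 30.4% rose, and the median log2-fold change was -0.37 beside 0.03 for all tested genes. With upper-quartile scaling 10 fell and 4 rose (median -0.21 beside 0.19 for all genes). Over all 15657 tested genes that scaling called 3285 lower and 5972 higher. ATP6V0D1 fell 1.98-fold from 109.2 ± 21.4 to 55.2 ± 10.9 CPM (adjusted p = 0.00216), and ATP6V0E2 fell 1.76-fold from 34.7 ± 4.88 to 19.7 ± 3.44 CPM (adjusted p = 0.00254). The risers were low-abundance isoforms, such as ATP6V1E2 (2.64 ± 0.387 to 6.37 ± 1.27 CPM, adjusted p = 0.00124) and ATP6V1G2 (2.05 ± 0.957 to 4.72 ± 1.11 CPM, adjusted p = 0.0238). The call for ATP6V1G2 was lost without hypoxia replicate 1 (adjusted p = 0.0693) or 2 (adjusted p = 0.0750). The list had 17 called genes, but 9 without replicate 1 and 11 without replicate 2 of both conditions.

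Of 15 proton sensors, acid-sensing channels and surface proton pumps, 11 were too low to be tested. Of the 4 tested, 1 rose and 1 fell, or 3 rose and 1 fell under the replicate block. ASIC1, a channel opened by extracellular protons, rose from 23.4 ± 0.357 to 32.8 ± 1.44 CPM (log2-fold change 0.49, adjusted p = 0.00143). The 6 regulators of bicarbonate transport were all tested, and 2 rose and 2 fell. AHCYL1 encodes IRBIT, an activator of sodium bicarbonate cotransporters, and fell 1.54-fold from 202 ± 7.56 to 131 ± 15.8 CPM (adjusted p = 0.00115). The kinase gene OXSR1 rose 1.41-fold from 118 ± 3.19 to 166 ± 8.97 CPM (adjusted p = 8.64e-04). Its upstream kinases went in opposite directions, with WNK4 higher (log2-fold change 0.74, adjusted p = 0.00548) and WNK1 lower (log2-fold change -0.30, adjusted p = 0.0149). WNK4 lost its call without replicate 1 of both conditions (adjusted p = 0.0781). The call for WNK1 was lost with upper-quartile scaling (-0.14, adjusted p = 0.149) and without normoxia replicate 1 or hypoxia replicate 1 or 2.

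**Figure D5:**
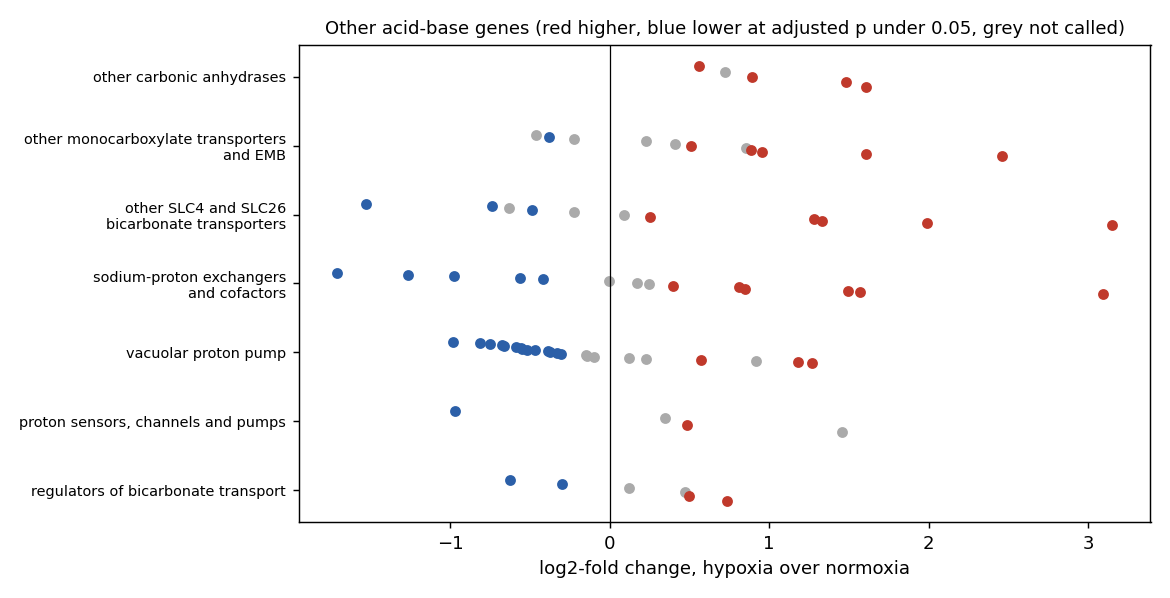
Log2-fold change (hypoxia over normoxia, horizontal axis) of each tested gene of 7 lists of acid-base genes, stacked by value within a list, with genes called higher in red, lower in blue and not called in grey. Vacuolar proton pump subunits cluster below 0 (14 blue, 3 red), whereas the other carbonic anhydrases lie above 0 (4 red).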

How the data were processed

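Deposited counts of reads per gene were used for 6 RNA sequencing libraries of T47D cells, 3 in normoxia and 3 in hypoxia. The authors prepared stranded mRNA libraries, removed adapters with Skewer, and deposited unnormalized counts and exon lengths for each gene. The submitters' processing notes name FastQC 0.11.5, STAR 2.5.2a, featureCounts 1.5.1 and build hg19 (GRCh37). How the counting used strand, and how it treated reads that align to more than 1 place, is not given in the sources used here. No other gene in the files shared exon bases with a member.

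Members and lists were chosen with earlier results of these data known. Genes were kept by edgeR's filterByExpr (minimum count 10, minimum total 15) and tested over all 15657 genes with edgeR's quasi-likelihood test (TMM, condition as the only term, Benjamini-Hochberg adjustment at 0.05), which gave every adjusted p unless another tool is named. Fold changes given with a p are fitted values. Alternatives were the exact test of edgeR, which the study names, DESeq2, other scalings, a filter of at least 1 count, the replicate block, and fits that left out a library or a replicate number. Libraries share numbers 1 to 3 in the labels, and deviations from condition means correlated at 0.339, 0.430 and 0.577 within numbers 1, 2 and 3. Normoxia 2 with hypoxia 1 gave 0.290, and normoxia 1 with hypoxia 2 gave 0.230. Number 3 correlated negatively with the others. These values set number 3 apart but hardly tell number 1 from number 2. The numbers were taken as pairs in the replicate block, but the main fit and the exact permutation tests left the pairing out. The study's methods call the hypoxia and normoxia samples paired, without saying which libraries form a pair. No libraries agreed within sampling noise (chi-square per degree of freedom of at least 6.09). Levels are TMM-normalized CPM, mean ± SD of 3 libraries. Named list genes were the 2 largest called changes each way per list among genes averaging at least 50 counts, with VEGFA, marker genes where a library stood apart, and the 3 genes correlating best with each of CA9, CA12, SLC16A1 and SLC16A3. ESR1, GATA3, FOXA1, PGR, KRT17, TP63, CD44, AXL, CD68, PTPRC, CA14, SLC16A7 and EMB were named after their values were seen. Some genes that met this rule are not reported here. The test was tried on simulated data. R 4.3.3, edgeR 4.0.16, limma 3.58.1, DESeq2 1.42.0, Python 3.11.15 and matplotlib 3.10.9 were used.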

Additional observations from a re-analysis of the deposited data

How the results depend on the processing

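Across the 15 alternatives, CA9, SLC16A3 and CA12 kept their direction and their call in all 15, and SLC16A1 was called in 0. The SLC16A1 value turned to 0.011 with upper-quartile scaling. SLC4A2, not called with condition alone, was called in 7 of the 15. These were the replicate block (-0.39), edgeR's exact test (-0.39), DESeq2 (-0.41), a filter of at least 1 count (-0.40), and fits without normoxia replicate 2 (-0.52), hypoxia replicate 3 (-0.53) or replicate 3 of both conditions (-0.37). SLC4A2 was not called with RLE or upper-quartile scaling, or without replicate 1 or 2 of both conditions. The call also failed without normoxia replicate 1 or 3 or hypoxia replicate 1 or 2. Its values ranged from -0.53 to -0.25 over the libraries and replicate numbers left out. SLC4A7 ranged from -0.53 to -0.39 and BSG from 0.26 to 0.46 over the same, and among the alternatives each lost its call only without replicate 1 of both conditions (-0.39 and 0.41). The block raised the called sensor and channel genes from 2 to 4 and, with SLC4A2, is printed beside those results. It changed no other call among the 7 members and moved no other list's count by over 1.5 times. Leaving out replicate 1 of both conditions left 4839 called genes (2648 higher, 2191 lower) and 1 member lower. The anion transporter list then had 5 called genes, the sodium-proton list 7, the vacuolar pump 9 and the regulators 2. Without replicate 2 of both conditions, 6687 genes were called (3554 higher, 3133 lower). The anion transporters then had 5, the vacuolar pump 11 and the sensors 1. CA2 and SLC4A4 could not be tested under the filter on low counts. With 3 libraries a condition, the exact permutation tests of ratios and sums cannot pass 0.05, and genes under 3 counts in a library are not detectable there.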

Other observations

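Genes whose log2 CPM followed a member most closely over the 6 libraries were taken from 13586 genes averaging at least 50 counts, as a description in which the points share libraries, depth and the oxygen contrast. For CA9 they were HLA-DQB1 (Pearson r = 0.999), STX2 (r = 0.999) and FFAR4 (r = 0.999), of which STX2 rose only from 14.1 ± 0.606 to 17.7 ± 0.198 CPM. For SLC16A3 they included ITGA5 (r = 0.999) and TTYH3 (r = 0.999). ITGA5, the fibronectin receptor subunit, rose from 8.52 ± 0.108 to 26.8 ± 5.58 CPM. For CA12 they were UBE2V2, SLC22A5 and TTI2 (r = 0.999 each), all lower in hypoxia. With 2 conditions this far apart such values are common, since 1497 genes for CA9, 1113 for SLC16A3 and 1633 for CA12 exceeded r = 0.95. SLC16A1 had 7 such genes, led by FAM117A (r = 0.967), NSMCE2 (r = 0.965) and HDAC5 (r = 0.963), none of which was called with condition alone. With the replicate number as a term, NSMCE2 was called lower (log2-fold change -0.21, adjusted p = 0.0282).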
